A study of Homo sapiens with 4 samples.

Results

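The core duplicon families NBPF, NPIP and GOLGA are primate gene families whose copies spread through the genome inside large duplicated blocks and stayed nearly identical in sequence. Their members were taken by name, as the protein-coding genes called NBPF with a number, NPIPA or NPIPB, and GOLGA6 or GOLGA8. By this rule 58 of the 51740 genes listed were members, with 13 NBPF genes, 19 NPIP genes and 26 GOLGA genes. The RNA came from wildtype HEK293T cells, a line grown from human embryonic kidney and made to express SV40 large T antigen, and all cells were crosslinked with formaldehyde before they were split into a nuclear and a cytoplasmic fraction to ask in which compartment transcripts reside. There were 4 libraries, 2 of the nuclear and 2 of the cytoplasmic fraction, described as independent biological replicates. Ribosomal RNA was depleted, and each library was made from the same 400 ng of RNA. A value is thus relative to the other RNA of its fraction and not an amount per cell. Values are on the authors' DESeq2 scale, on which the normalized counts of all genes sum to 18136040 in the nucleus and 28705052 in the cytoplasm. They are therefore not shares of a fraction's total. A lower value cannot tell fewer cells with the RNA from less RNA in each cell.

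NBPF genes, the neuroblastoma breakpoint family, encode proteins built of repeated Olduvai domains (formerly DUF1220), and the number of these repeats grew along the human lineage. NPIP genes, named for a nuclear pore complex interacting protein, sit in a duplicated block of chromosome 16 and are known for rapid change of their protein sequence in apes. GOLGA6 and GOLGA8 genes encode coiled-coil proteins related to the golgins, which tether vesicles to the Golgi apparatus, and their copies flank breakpoints of recurrent rearrangements of chromosome 15. For most of these genes the function of the protein is not settled.

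How alike the copies are decides how well a read can be placed, so a few coding stretches are shown first. They were read from the hg38 assembly in coding exons of GENCODE 44, 5′ to 3′ on the strand of the gene. The first stretch of 100 bases was found unchanged in 8 NBPF members (NBPF9, NBPF10, NBPF11, NBPF12, NBPF14, NBPF19, NBPF20 and NBPF26). It is given for NBPF12 (chr1:146969497-146969596, plus strand), with the closest stretches of NBPF1 (chr1:16576267-16576366, minus strand) and NBPF3 (chr1:21471684-21471783, plus strand), in which capitals mark bases that differ from NBPF12.
NBPF12: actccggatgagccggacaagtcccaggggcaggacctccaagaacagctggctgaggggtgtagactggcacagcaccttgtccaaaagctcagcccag
NBPF1: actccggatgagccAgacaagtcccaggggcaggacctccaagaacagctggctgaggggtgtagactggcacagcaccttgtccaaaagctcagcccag
NBPF3: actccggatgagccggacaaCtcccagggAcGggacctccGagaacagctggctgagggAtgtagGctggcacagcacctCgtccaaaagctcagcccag
NBPF1 differed at 1 base and NBPF3 at 7. Among members not printed, NBPF15 also differed at 1 base, and NBPF4 and NBPF6 at 14. NBPF1 and NBPF3 lie on the short arm of chromosome 1, away from the cluster near the centromere that holds the 8 members with the unchanged stretch. NBPF15 lies within that cluster.

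Among the NPIP genes, 6 NPIPB members (NPIPB3, NPIPB4, NPIPB5, NPIPB11, NPIPB12 and NPIPB13) shared 1 stretch without a difference. It is given for NPIPB4 (chr16:21834814-21834913, minus strand), with the closest stretch of NPIPB2 (chr16:11927412-11927511, minus strand), whose 10 differing bases are in capitals.
NPIPB4: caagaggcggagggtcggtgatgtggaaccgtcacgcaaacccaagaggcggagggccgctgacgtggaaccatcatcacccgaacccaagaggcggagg
NPIPB2: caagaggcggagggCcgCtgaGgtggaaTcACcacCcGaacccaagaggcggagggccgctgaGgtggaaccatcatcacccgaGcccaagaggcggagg
The stretch is made of short repeats, and NPIPB2 lies apart from the 6 genes that share it on the chromosome.

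The last stretch is from GOLGA8A (chr15:34381514-34381613, minus strand) and GOLGA8B (chr15:34527735-34527834, minus strand), which held most of the GOLGA counts. No 100-base coding stretch of GOLGA8A had more than 1 difference from its closest stretch in GOLGA8B, and the capital marks the base by which this one differs.
GOLGA8A: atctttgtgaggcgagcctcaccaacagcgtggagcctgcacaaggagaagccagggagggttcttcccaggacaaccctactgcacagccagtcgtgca
GOLGA8B: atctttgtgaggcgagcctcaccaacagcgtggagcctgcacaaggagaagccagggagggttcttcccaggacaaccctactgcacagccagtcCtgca
Of the 424 coding windows of 100 bases in GOLGA8A, 328 (77.4%) were also found in GOLGA8B. In contrast, none of the 727 coding windows of NBPF3 and 68 of the 1131 windows of NBPF1 (6.0%) were found in NBPF12.

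Exonic windows of 100 bases, the length of 1 read, were looked up over all exons of each gene. The share that occurs once in the genome had a median of 44.3% in NBPF, 9.30% in NPIP and 21.7% in GOLGA. Over 15329 tested protein-coding genes this median was 100.0%, and the 5th percentile was 94.4%. The highest share in NBPF was 78.8%, in NBPF3. In NPIP it was 56.3%, in NPIPB15, and no exonic window of NPIPA7 or NPIPA8 was unique. Exonic windows leave out that introns were counted too and that reads came in pairs. Over gene spans, introns included, the medians were 27.0% in NBPF, 12.2% in NPIP and 18.0% in GOLGA. The counting settings stated by the authors name no option for reads that match several places, and featureCounts leaves such reads out by default. The counts of near-identical members would then rest on the reads with a single best place, so their split is uncertain and sums over a family are given beside single members.

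The fractions were distinct by markers. MALAT1, NEAT1 and KCNQ1OT1, nuclear long non-coding RNAs, had log2 fold changes of cytoplasm over nucleus from -4.25 to -3.09, and GAPDH, ACTB, EEF1A1 and TPT1, mRNAs of abundant cytoplasmic proteins, from 2.68 to 4.09. MEG3, the other nuclear RNA on the list, had a mean of 0.542 normalized counts and was not tested. VIM, NEFL, NEFM, PAX2 and KRT18, which HEK293 cells are known to express, had means of 63.1 to 18261, and the markers of liver, blood and pancreas ALB, HBB, PTPRC, CD3E and INS had means of at most 1.76. The implied totals of the libraries were 21567507 to 24481541 counts on genes, under the assumption that both libraries of a fraction have the same normalized sum.

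Most members with enough counts were higher in the nuclear fraction, and none was called higher in the cytoplasmic fraction. Of the 58 members, 9 had a mean of 0, 6 had a mean above 0 but no adjusted p-value, and 43 were tested in the authors' deposited table. The threshold for a call was an adjusted p-value of 0.01 or lower, and SE below is the authors' standard error of the log2 fold change. By this threshold 29 of 43 tested members (67.4%) were higher in the nuclear fraction, where the share called in that direction was 26.5% over every tested gene and 28.4% over those that code for protein. In the cytoplasmic direction 0 members were called, against 25.9% over every tested gene and 35.6% over those that code for protein, and 2 members, NBPF1 and NBPF3, were above 0 at an unadjusted DESeq2 p-value under 0.05. The median log2 fold change was -2.04 over the 43 tested members and 0.11 over all 15336 tested protein-coding genes. With the 2 members without a cytoplasmic count at their bound, the median over the members was -2.01. Members that passed the authors' filter on low means did so through both fractions together, so a member with many nuclear counts could pass without any cytoplasmic count.

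Counts of each library were recovered for the 49 members with a mean above 0, because a mean over 4 libraries is a whole-number combination of what 1 count is worth in each. The 2 libraries of a fraction are named by depth, since the table does not say which replicate is the deeper.

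**Figure D1:**
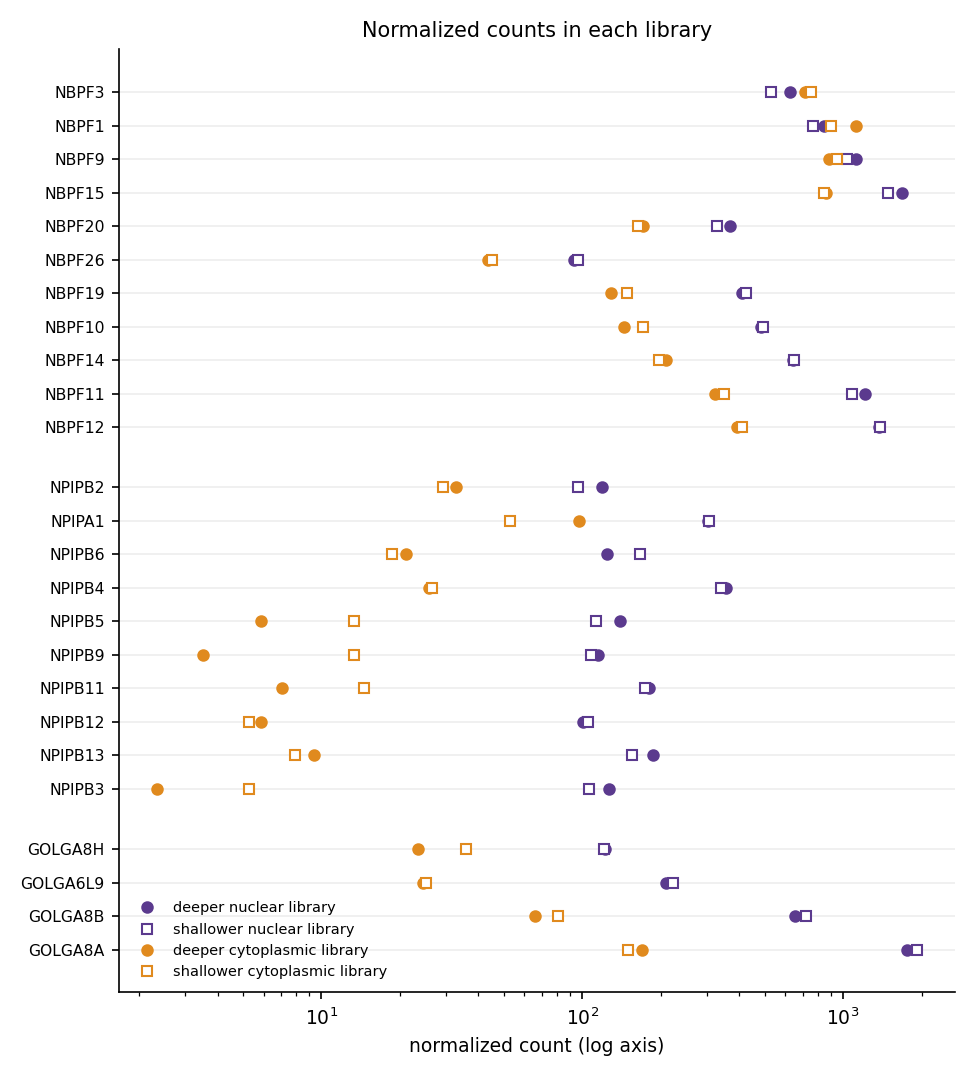
Normalized counts (log axis) of the 25 tested members with a mean over 50 in each of the 4 libraries, ordered by log2 fold change within NBPF (top), NPIP and GOLGA (bottom). Purple marks are nuclear and orange marks cytoplasmic libraries, filled for the deeper and open for the shallower library. For NBPF3 and NBPF1 the orange marks lie to the right of the purple ones on this scale, an order that equal library totals would turn. For the other 23 members they lie to the left. The share of all genes whose libraries separate in this way was not counted.

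NBPF transcripts split into members at similar levels in both fractions and members that were higher in the nucleus. Of 11 tested members, all with a mean over 50, 8 were called nuclear (72.7%), and NBPF1, NBPF3 and NBPF9 were not called. Among 2355 other protein-coding genes with spans and means in the range of these members, the share called nuclear was 48.5%. The family median was -1.10, and the members ranged from -1.79 to 0.35. NBPF4 had no count in any library, which allows up to 3, and NBPF6 had 4 counts in all and was not tested.

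NBPF1, the member first found at a chromosome break in a neuroblastoma patient (ENSG00000219481, chromosome 1, 16562319 to 16613562, minus strand), had normalized counts of 843 and 767 in the deeper and shallower nuclear libraries and of 1123 and 896 in the cytoplasmic libraries. Both cytoplasmic values were above both nuclear ones. Its log2 fold change was 0.33 (SE 0.16, DESeq2 adjusted p = 0.0587). NBPF3 (ENSG00000142794, chromosome 1, 21440128 to 21485005, plus strand) had 623 and 530 in the nuclear libraries and 714 and 753 in the cytoplasmic ones. NBPF3 was thus also somewhat higher in both cytoplasmic libraries, with a log2 fold change of 0.35 (SE 0.16, DESeq2 adjusted p = 0.04998). It was the member with the highest log2 fold change among those with a mean over 50. The size and even the sign of both values depend on the scale, and with equal library totals they became -0.33 for NBPF1 and -0.32 for NBPF3.

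NBPF9 (ENSG00000269713, chromosome 1, 149052186 to 149103561, minus strand) had 1119 and 1034 normalized counts in the nuclear libraries and 886 and 946 in the cytoplasmic libraries. Its log2 fold change of -0.23 had a standard error of 0.14 and a 95% interval from -0.50 to 0.04, with a DESeq2 adjusted p-value of 0.137. NBPF9 carries the shared stretch printed for NBPF12 unchanged, and whether this goes with its fold change was not tested. Its level in the cytoplasm was close to that in the nucleus on the deposited scale. With equal library totals its log2 fold change was -0.90 and it was called nuclear.

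NBPF15, the member with the most counts (ENSG00000266338, chromosome 1, 144421390 to 144461676, minus strand), had 1679 and 1482 in the nuclear libraries and 857 and 845 in the cytoplasmic libraries. The fractions did not overlap, and the log2 fold change was -0.89 (SE 0.14, DESeq2 adjusted p = 1.72e-10), or 1.86-fold higher in the nucleus. NBPF12 (ENSG00000268043, chromosome 1, 146938324 to 146996202, plus strand) had 1377 and 1383 in the nuclear libraries and 392 and 409 in the cytoplasmic libraries. It was the most nuclear NBPF member, 3.45-fold higher there, with a log2 fold change of -1.79 (SE 0.14, DESeq2 adjusted p = 4.82e-34).

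NBPF11 was close to NBPF12, with 1216 and 1084 normalized counts in the nuclear libraries against 322 and 349 in the cytoplasmic ones and a log2 fold change of -1.78. NBPF14 had 640 and 647 against 210 and 197, at -1.66. NBPF10 had 485 and 494 against 144 and 171, at -1.64. These members, and NBPF19 with 411 and 424 against 129 and 148 (-1.59), had overlapping 95% intervals. NBPF10, NBPF14 and NBPF19 are long members with many Olduvai repeats, and 13.9% to 17.3% of their exonic windows were unique. NBPF20, also long (136 kb) and rich in repeats, was less nuclear, at a log2 fold change of -1.05. It had 367 and 328 against 171 and 164. NBPF26, the least abundant tested member and 118 kb long, had 93.2 and 96.7 against 43.4 and 45.1, at -1.10 (SE 0.38).

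NBPF10, NBPF14, NBPF19 and NBPF26 share much of their span with other annotated genes, from 50.4% for NBPF10 to 100% for NBPF19 in GENCODE 44. Stretches covered by several genes were taken out by the authors before counting, so the counts of these members rest on what was left in the authors' earlier annotation. The same limit holds in the other families for NPIPB12 and GOLGA8N (100% each), NPIPB7 (99.7%), NPIPB3 (53.3%), GOLGA6L9 (47.3%) and NPIPA1 (44.1%), among others. NPIPB11 and NPIPB13 shared none of their span. The NOTCH2NL genes, partial copies of NOTCH2 that act in cortical progenitors, lie in the same duplicated blocks as NBPF genes. In GENCODE 44 NOTCH2NLA overlaps NBPF10, NOTCH2NLB overlaps NBPF14 and NOTCH2NLR overlaps NBPF26, each on the same strand. Their counts too rest on what was left after shared stretches were taken out. From 12.8% (NOTCH2NLA) to 47.9% (NOTCH2NLR) of their exonic windows were unique. All 4 were called nuclear, at -0.93 for NOTCH2NLA, -0.99 for NOTCH2NLB, -2.96 for NOTCH2NLC and -3.73 for NOTCH2NLR (SE 0.98, mean 17.8). They were picked for mention after their values had been seen.

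NPIP transcripts were the most nuclear of the 3 families by median. Of 16 tested members 14 were called nuclear (87.5%), with a median log2 fold change of -3.74, and all 16 were below 0. All 10 members with a mean over 50 were called, between -4.96 and -1.80. NPIPA2, NPIPA3 and NPIPA8 had at most 3 counts each and were not tested, and NPIPA5 and NPIPB7 were tested but not called.

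NPIPA1, the gene first named NPIP (ENSG00000183426, chromosome 16, 14922802 to 14952060, plus strand), had the highest NPIP mean, with 304 and 307 normalized counts in the nuclear libraries and 97.3 and 53.0 in the cytoplasmic libraries. Its cytoplasmic libraries were further apart than its nuclear ones, and both were well below them. The log2 fold change was -2.01 (SE 0.29, DESeq2 adjusted p = 7.26e-12). NPIPA1 alone made up 17.9% of the family's mean normalized counts.

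NPIPB4 (ENSG00000185864, chromosome 16, 21834582 to 21880827, minus strand) had 356 and 340 in the nuclear libraries and 25.8 and 26.5 in the cytoplasmic libraries. It was 13.3-fold higher in the nucleus, with a log2 fold change of -3.73 (SE 0.32, DESeq2 adjusted p = 3.36e-31). NPIPB11 (ENSG00000254206, chromosome 16, 29381310 to 29406711, minus strand) had 180 and 174 against 7.04 and 14.6, at -4.06 (SE 0.47, DESeq2 adjusted p = 1.67e-17). Its cytoplasmic counts came to 17 in both libraries together. NPIPB3 (ENSG00000169246, chromosome 16, 21402237 to 21448567, minus strand) was the most nuclear member with a mean over 50, at -4.96 (SE 0.70, DESeq2 adjusted p = 5.22e-12). It had 127 and 106 normalized counts in the nuclear libraries and 2.35 and 5.30 in the cytoplasmic libraries, which were 6 counts in all.

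NPIPB2 (ENSG00000234719, chromosome 16, 11927259 to 11976643, minus strand) was the least nuclear NPIP member with a mean over 50. It had 119 and 96.7 in the nuclear libraries and 32.8 and 29.2 in the cytoplasmic libraries, a log2 fold change of -1.80 (SE 0.40, DESeq2 adjusted p = 2.21e-05). Its printed stretch differs at 10 bases from the one that 6 NPIPB members share. Other NPIPB members differed more from that stretch, with 30 bases in NPIPB15, 31 in NPIPB6 and 35 in NPIPB7, NPIPB8 and NPIPB9. Their log2 fold changes were -4.46, -2.86, -1.14, -3.29 and -3.77, and NPIPB7 was not called. Whether such differences go with the fold change was not tested. NPIPB6 stood between NPIPB2 and NPIPB3, with 124 and 166 against 21.1 and 18.6. The 95% intervals of NPIPA1, NPIPB2 and NPIPB6 overlapped.

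The remaining NPIPB members with a mean over 50 had between 101 and 187 normalized counts in the nuclear libraries and between 3.52 and 13.3 in the cytoplasmic libraries. NPIPB13 had 187 and 155 against 9.38 and 7.95, at -4.30. NPIPB12 had 101 and 105 against 5.86 and 5.30, at -4.20. Both cytoplasmic libraries were alike for these genes. For others they were further apart. NPIPB9 had 115 and 108 against 3.52 and 13.3, at -3.77, and NPIPB5 had 140 and 113 against 5.86 and 13.3, at -3.75. All of these cytoplasmic values rest on few counts, with 8 and 6 for NPIPB13 and 5 and 4 for NPIPB12. The counts were 3 and 10 for NPIPB9 and 5 and 10 for NPIPB5. Whether the cytoplasmic libraries differ beyond counting error was not tested. Without the shallower cytoplasmic library the log2 ratio of mean normalized counts moved from -3.74 to -4.99 for NPIPB9, from -4.04 to -4.66 for NPIPB11, from -4.93 to -5.63 for NPIPB3 and from -3.73 to -4.43 for NPIPB5, and without the deeper one it was -3.07 for NPIPB9.

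Below a mean of 50, NPIPA9 had 77.6 and 92.5 in the nuclear libraries against 7.04 and 6.63, NPIPB15 had 43.3 and 66.4 against 2.35 and 2.65, and NPIPB8 had 33.6 and 15.1 against 2.35 and 2.65. All 3 were called nuclear, at -3.64, -4.46 and -3.29. NPIPA7, with no unique exonic window, had 11.9 and 12.6 in the nuclear libraries and no count in the cytoplasmic libraries. It was also called nuclear and was at least 6.58-fold lower in the cytoplasm, when the cytoplasm is set at 3 counts over both libraries. Over its whole span, introns included, 6.2% of the windows of NPIPA7 were unique. Its spliced RNA may therefore have gone largely uncounted in both fractions, and the part of this in the fold change was not tested.

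**Figure D2:**
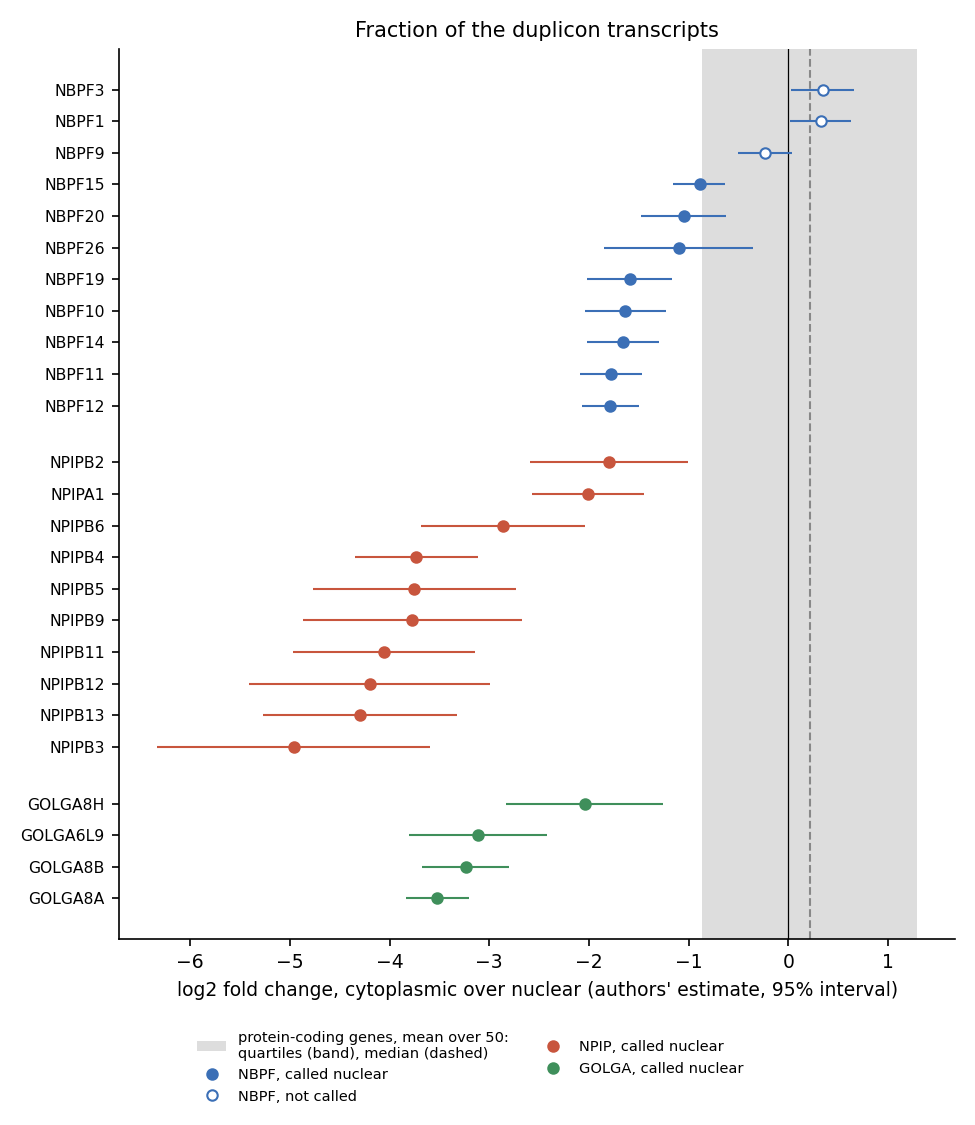
Log2 fold change of cytoplasm over nucleus (the authors' estimate, with its 95% interval) for the 25 tested members with a mean over 50, in NBPF (blue), NPIP (red) and GOLGA (green). Filled points were called nuclear and open points were not called, and the grey band and dashed line give the range from the lower to the upper quartile (-0.87 to 1.29) and the median (0.22) of the 12138 tested protein-coding genes with a mean over 50. All NPIP and GOLGA points, from -4.96 to -1.80, lie to the left of the band.

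GOLGA transcripts were dominated by a near-identical pair. GOLGA8A and GOLGA8B together made up 77.2% of the family's mean normalized counts. Of 26 members 8 had no count at all, among them GOLGA6L1, GOLGA6L2, GOLGA8F, GOLGA8G and GOLGA8S, and 16 were tested. Of these, 7 were called nuclear (43.8%), and the family median was -2.05. All 4 members with a mean over 50 were called, and 3 of the 12 with a mean of at most 50.

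GOLGA8A (ENSG00000175265, chromosome 15, 34378935 to 34437808, minus strand) had 1750 and 1916 normalized counts in the nuclear libraries and 169 and 150 in the cytoplasmic libraries. It was 11.5-fold higher in the nucleus, at -3.52 (SE 0.16, DESeq2 adjusted p = 4.57e-102), the lowest log2 fold change in the family among members with a mean over 50. GOLGA8B (ENSG00000215252, chromosome 15, 34525095 to 34588503, minus strand) had 653 and 721 in the nuclear libraries and 65.7 and 80.8 in the cytoplasmic libraries. It was 9.41-fold higher in the nucleus, at -3.23 (SE 0.22, DESeq2 adjusted p = 5.49e-47). The 95% intervals of both genes, -3.84 to -3.20 and -3.67 to -2.80, overlapped, and the split of reads between them is uncertain.

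GOLGA6L9 (ENSG00000197978, chromosome 15, 82429816 to 82439153, plus strand), of the GOLGA6-like branch, had 209 and 222 against 24.6 and 25.2. Libraries of a fraction were close to each other, and the log2 fold change was -3.11 (SE 0.35, DESeq2 adjusted p = 6.57e-18). GOLGA8H (ENSG00000261794, chromosome 15, 30604028 to 30617752, plus strand) had 122 and 121 against 23.5 and 35.8, at -2.04 (SE 0.40, DESeq2 adjusted p = 8.82e-07). It was the least nuclear GOLGA member with a mean over 50.

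GOLGA8H belongs to a group of GOLGA8 copies that share coding sequence. The following stretch (chr15:30614402-30614501, plus strand) was found unchanged in 9 of them (GOLGA8H, GOLGA8J, GOLGA8M, GOLGA8N, GOLGA8O, GOLGA8Q, GOLGA8R, GOLGA8S and GOLGA8T).
GOLGA8H: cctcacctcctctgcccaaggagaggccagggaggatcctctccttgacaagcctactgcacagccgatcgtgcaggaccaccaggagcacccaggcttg
Of these copies GOLGA8T (73.8 and 67.3 against 14.1 and 17.2) and GOLGA8N (a log2 fold change of -1.72) were called nuclear as well. GOLGA8R, with 22.4 and 24.4 against 12.9 and 9.28, was at -1.07 (SE 0.75) and was not called. GOLGA8M had 43 nuclear counts and 3 cytoplasmic ones, and GOLGA8Q had 12 nuclear counts and none in the cytoplasm, which was at least 2.52-fold lower. Neither passed the threshold, with DESeq2 adjusted p-values of 0.0182 for GOLGA8M and 0.101 for GOLGA8Q.

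In the GOLGA6 branch, GOLGA6L10 was called nuclear, with 64.1 and 76.5 against 15.2 and 18.6. GOLGA6A was the only tested GOLGA member above 0, at 0.68 (SE 1.83), and it rested on 10 counts over all 4 libraries. GOLGA6B and GOLGA6L4 had 2 cytoplasmic counts each and were not called.

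Sums over the members of a family do not depend on how reads were split among those members. They leave out copies labelled non-coding by the authors, such as NBPF8 with a mean of 757 and NPIPB14P with a mean of 424. The sums still depend on the split with these. The NBPF members summed to 8851 and 8271 normalized counts in the nuclear libraries and to 4994 and 4927 in the cytoplasmic libraries, 1.73-fold more in the nucleus. NPIP members summed to 1938 and 1882 against 236 and 201, and GOLGA members to 3050 and 3316 against 378 and 390. These sums were 8.74-fold and 8.30-fold higher in the nucleus, and in each family both nuclear libraries were above both cytoplasmic ones. As log2 ratios the sums were at -0.79, -3.13 and -3.05, and over the 4 pairs of a nuclear with a cytoplasmic library they ranged from -0.85 to -0.73, from -3.27 to -3.00 and from -3.13 to -2.97. Reads that were left uncounted because they match several places, if any, are outside these sums. Scaled to 1000000 normalized counts of a fraction, all members together held 753 in the nucleus and 194 in the cytoplasm.

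**Figure D3:**
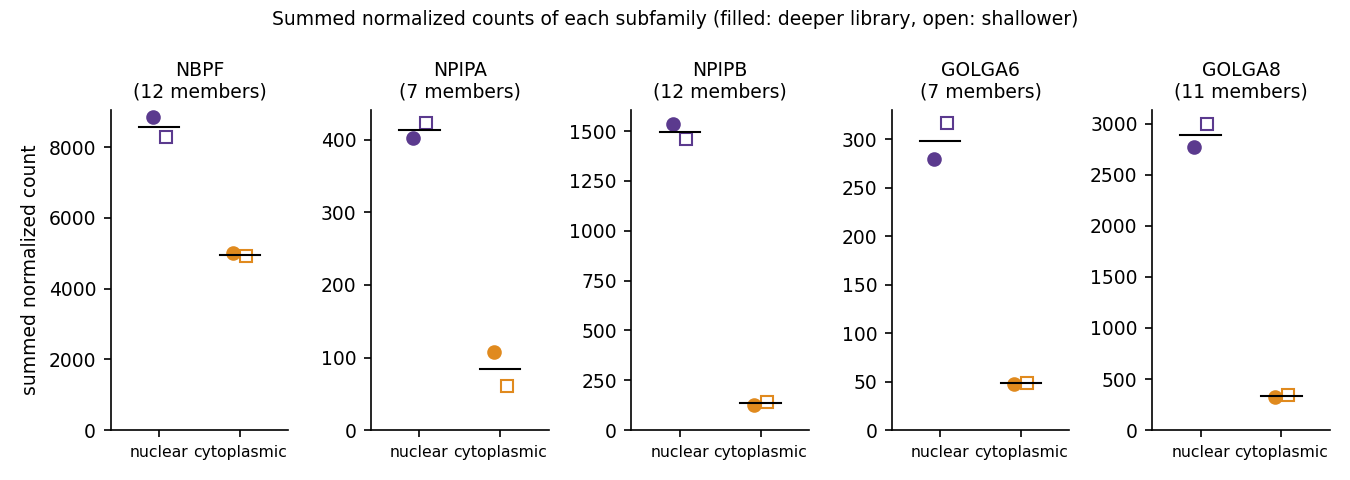
Summed normalized counts (linear axis from 0, a scale of its own in each panel) of the members with counts in NBPF, NPIPA, NPIPB, GOLGA6 and GOLGA8, for the nuclear (purple) and the cytoplasmic (orange) libraries, with a line at the mean of both libraries. The nuclear libraries lie above the cytoplasmic ones in each panel, by 1.73-fold in NBPF and 11.2-fold in NPIPB.

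Within NPIP, the NPIPB members summed to 1535 and 1459 in the nucleus and 128 and 140 in the cytoplasm, a log2 ratio of -3.48. The NPIPA members summed to 403 and 423 against 108 and 61.0, at -2.29, and their 2 cytoplasmic libraries were the furthest apart of all sums. The ranges over pairs of libraries, -3.59 to -3.38 for NPIPB and -2.79 to -1.90 for NPIPA, did not overlap. NPIPA1 carried most of the NPIPA sum, so this was largely a comparison of NPIPA1 with 12 other genes. GOLGA8 members were at -3.11 and GOLGA6 members at -2.62.

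By median, the order of the families did not follow the length of their genes, taken over all members. NBPF members, the longest with a median span of 51.4 kb, were the least nuclear by median, while NPIP and GOLGA genes had median spans of 22.9 and 13.6 kb. Within families the Spearman correlation of span with log2 fold change, over members with a mean over 50, differed in sign. It was -0.445 in the 11 NBPF members, 0.055 in the 10 NPIP members and negative in the 4 GOLGA members. Over all 25 it was 0.433. The part of gene length in the fold changes was not tested. Tested protein-coding genes outside the families, with spans and means in the range of the members with a mean over 50, had a median log2 fold change of -0.51 for the NBPF range (2355 genes), -0.21 for the NPIP range (426 genes) and 0.38 for the GOLGA range (3629 genes). The medians of the members with a mean over 50 were -1.10, -3.76 and -3.17. The share called nuclear was 30.5% of the other genes in the NPIP range and 20.9% in the GOLGA range. The 10th and 90th percentiles of those other genes were -1.92 and 0.77 for the NBPF range, -1.92 and 1.10 for the NPIP range and -1.23 and 1.70 for the GOLGA range. The NBPF members with a mean over 50 all lay between their percentiles. Of the NPIP members with a mean over 50 all but NPIPB2 lay below their 10th percentile, and so did all 4 GOLGA members. These values describe the genes and are no test of the families.

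**Figure D4:**
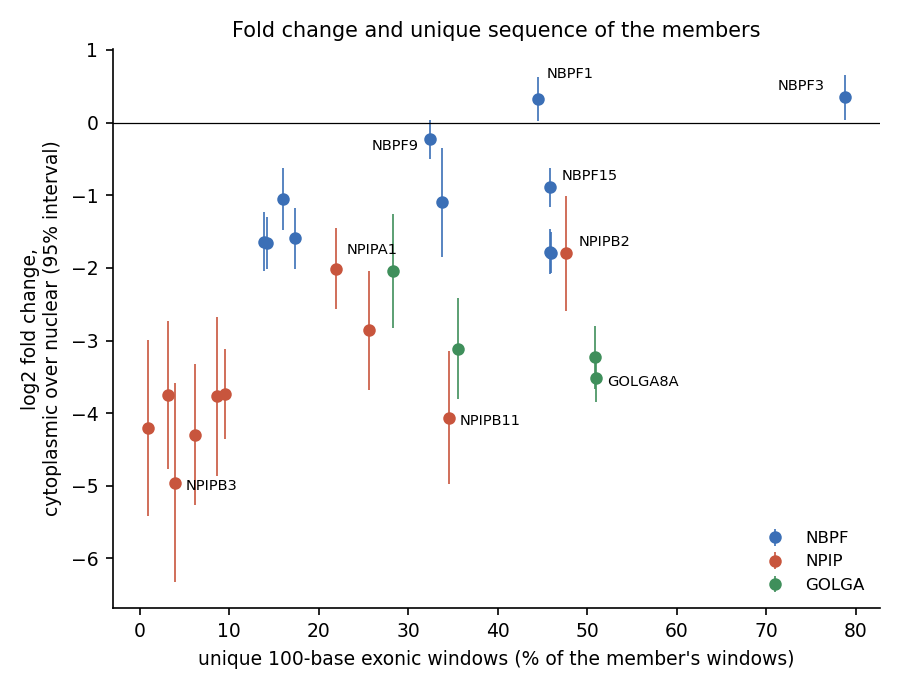
Log2 fold change of cytoplasm over nucleus (95% interval) against the share of a member's 100-base exonic windows that occur once in the genome, for the 25 tested members with a mean over 50. NBPF (blue) and NPIPB2 lie high and the NPIP members with under 10% unique windows lie from -4.96 to -3.73, while NPIPB11, with 34.6%, is at -4.06 and GOLGA8A, with 51.0%, at -3.52.

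The relation of unique sequence to fold change differed in sign between the families. The Spearman correlation between the share of unique windows and the log2 fold change was 0.476 over 25 members and 0.648 over the 10 NPIP members, given as a description because members share sequence and libraries. It was 0.227 in the 11 NBPF members and -1.0 in the 4 GOLGA members with a mean over 50. The mean normalized count had a correlation of 0.652 with the log2 fold change over the same 25 members, of 0.418 in NPIP, 0.236 in NBPF and -1.0 in GOLGA. Single members went both ways. NBPF3, with 78.8% unique windows, was at 0.35, and NPIPB3, with 3.90%, was at -4.96. GOLGA8A and GOLGA8B had more unique windows (51.0% and 50.9%) than NBPF9 (32.4%), and their 95% intervals lay below that of NBPF9. The part of read placement in the fold changes was not tested.

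Of 25 copies of the families labelled non-coding in the authors' annotation, 14 were tested. Of these, 5 were called nuclear and 0 cytoplasmic, with a median of -1.34, where 26.5% of every tested gene was called nuclear. Of the 6 with a mean over 50, 4 were called nuclear and 2 were not called. The most abundant was NBPF8, at -1.35 (SE 0.16, DESeq2 adjusted p = 1.81e-16). NBPF8 is a pseudogene in the authors' annotation and a protein-coding gene in GENCODE 44. NPIPB14P was the lowest with a mean over 50, at -3.91, and GOLGA8VP the highest, at 0.32 with a DESeq2 adjusted p-value of 0.240.

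Single-copy golgins, to which the GOLGA proteins are related, were spread over both fractions. Of 11 tested, 5 were called nuclear and 3 cytoplasmic, with a median of -0.89. GOLGA3, the most abundant, was at 0.40, GCC1, a golgin of the trans-Golgi network, at 2.18, and GOLGA4, also of the trans-Golgi network, at -1.93. None of the 10 golgins with a mean over 50 was as low as GOLGA8A, GOLGA8B or GOLGA6L9.

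Relatives and neighbours of the duplicons had a median of -0.22 over 11 tested genes, with 5 nuclear and 3 cytoplasmic calls. Among these, GOLGA2 is also in the list of golgins, and ARHGAP11A also in that of other duplicated families below. PDE4DIP, which contains the ancestral Olduvai domain, was at 0.54 with a DESeq2 adjusted p-value of 2.02e-04, HERC2 at -0.22 and CHRNA7 at -2.48. Parts of these genes are duplicated too, and 44.4% of the exonic windows of PDE4DIP and 46.4% of those of CHRNA7 were unique. Other families duplicated in great apes had a median of -1.07 over 55 tested genes, of which 25 were called nuclear and 6 cytoplasmic. Among those with a mean over 50, ANKRD36 was the lowest, at -3.52, SULT1A1 the highest, at 2.02, and SMG1 the most abundant, at -0.34. This list also caught TBC1D30, TBC1D31 and TBC1D32, which are no copies of TBC1D3, and without them the median was -1.10.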

How the data were processed

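RNA of 2 nuclear and 2 cytoplasmic fractions of HEK293T cells was sequenced from both ends for 100 nt with a stranded kit after ribosomal RNA depletion. The authors used STAR to align reads to hg38 and featureCounts 2.0.2 to count them over both exons and introns of each gene, with an annotation derived from GENCODE from which they removed stretches of several genes and readthrough transcripts. Intronic reads therefore contribute to every value. Cytoplasm was compared with nucleus by the authors in DESeq2. The deposited table holds a signal (the mean normalized count over all 4 libraries), the log2 fold change of cytoplasm over nucleus with its standard error, the Wald score and the p-value, raw and Benjamini-Hochberg adjusted, and no value per library. These columns are the authors' own comparison. Members' calls are read from it because no count table was used here and a refit was not possible.

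What 1 count is worth in each library was read from genes with a single count, and its fraction from the sign of their fold change. For each member, whole counts were sought that give the deposited mean and, in a negative binomial fit of both fractions, the deposited fold change and standard error. A solution was accepted where it was the only one, or left a residual of at most 1e-05 with the next at least 10 times larger. This held for all 49 members with counts, and in a check on other protein-coding genes for 98 of 100 with means of 5 to 50, 100 of 100 with means of 50 to 200 and 100 of 100 with means of 200 to 1000. It was also tested on simulated data. Normalized counts are these counts divided by the size factors (1.34, 1.19, 0.853 and 0.755). The 95% intervals are normal intervals from the deposited standard errors. The p-values come from the authors' DESeq2 Wald test, fitted across all genes with 2 libraries a fraction.

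Gene structure came from GENCODE 44, a later annotation than the authors', and windows were looked up on both strands of hg38 without alternate loci. Values were named for members with a mean over 50, with full statistics for the 3 highest means and the highest and lowest fold change of each family. For a fraction without counts, 3 counts over both its libraries were taken as the floor, which covers counting error only. The members and lists were chosen with earlier results of these data known. Alternatives were other scales, thresholds, filters and summaries, each library left out in turn, and other window lengths. Python 3.11.15 with numpy 2.4.6, pandas 2.3.3 and scipy 1.17.1 was used.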

Additional observations from a re-analysis of the deposited data

How the results depend on the processing

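The 29 nuclear calls became 32 with equal library totals (GOLGA8K, GOLGA8M and NBPF9 were gained), 31 with the threshold at 0.05 and 22 among members with a mean over 50. Under a Bonferroni adjustment, taken over each gene that has a p-value, 19 of them were kept, since a stricter adjustment passes fewer genes. At 0.05, 1 member, NBPF3, was called cytoplasmic. With equal library totals, which lower every log2 fold change by 0.66, NBPF1 turned to -0.33 and NBPF3 to -0.32. The family medians stayed below 0 throughout. For NBPF the median of -1.10 became -0.91 as a weighted mean, -1.77 with equal totals, -1.21 with centring on the protein-coding median and -0.79 as the log2 ratio of sums. For NPIP, -3.74 became -3.20, -4.40 and -3.13 by the weighted mean, equal totals and the sums. For GOLGA, -2.05 became -2.96, -2.71, -2.16 and -3.05 in the order given for NBPF, and -3.17 over members with a mean over 50. Equal totals and centring move every value by the same amount by construction, and for the weighted mean, the sums and the filter on the mean the cause was not tested. With members without a cytoplasmic count at their bound, an alternative chosen after seeing the data, NPIP was at -3.68. Leaving out each library in turn, the log2 ratio of sums ranged from -0.84 to -0.74 for NBPF, from -3.25 to -3.02 for NPIP and from -3.11 to -2.99 for GOLGA. The median share of unique exonic windows in NBPF was 33.2% with 75 bases, 21.1% with 50 bases and 27.0% over gene spans, in NPIP 6.2%, 3.70% and 12.2%, and in GOLGA 15.4%, 9.65% and 18.0%. No paired analysis was possible because the recovered counts carry no replicate number. Depth limits the 18 tested members with a mean of at most 50, of which 7 were called.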
